A study of Mus musculus with 16 samples.

Results

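The 10 genes described here encode adhesion and surface proteins of the erythroblast, namely *Cd44*, *Cd47*, *Itga4*, *Itgb1*, *Icam4*, *Bcam*, *Cd36*, *Cd24a*, *Cd59a* and *Bsg*. They were chosen by symbol, and each symbol matched 1 row among the 55416 genes of the count table. Foetal livers were taken from 8 mouse embryos at E13.5, and S1 (earlier) and S3 (later) erythroblasts were separated by flow cytometry for Ter119 and CD71, giving 1 RNA-seq library per embryo and stage. The 4 WT embryos (*Nprl3*+/+, numbers 0, 1, 5 and 8), 2 Het embryos (*Nprl3*+/-, numbers 3 and 4) and 2 KO embryos (*Nprl3*-/-, numbers 2 and 9) had no treatment. WT and KO embryos were of both sexes and both Het embryos were male. The KO allele is constitutive, so that every tissue of the embryo lacks the *Nprl3* promoter region, while the α-globin enhancers within the gene were left in place. The line had been backcrossed to C57BL/6J. *Nprl3* encodes a subunit of GATOR1, which restrains the growth kinase complex mTORC1. The source and tissue labels name an embryonic stem cell line, whereas the titles and the study's methods give sorted foetal liver erythroblasts, and the latter were followed.

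Erythroblasts of the foetal liver mature in islands around a macrophage, and they hold on to it and to the matrix through integrins and immunoglobulin-family proteins. As they mature they shed much of this adhesion machinery, while proteins that a circulating red cell needs are built up on the surface, among them signals that keep macrophages from engulfing it, inhibitors of complement and carriers of metabolites. The surface level of CD44, a receptor for hyaluronan, falls along this path and is widely used in flow cytometry to stage erythroblasts, and CD24 and CD47 are familiar surface proteins of mouse erythroid cells.

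Libraries held between 20666044 and 37609502 counts in all. *Nprl3*, the targeted gene, had 691 to 996 normalised read counts at S1 in WT libraries, 386 and 396 in Het and 9.74 and 20.6 in KO libraries, whereas at S3 it had 4446 to 6215 in WT, 3593 and 4463 in Het and 3256 and 3377 in KO. Its log2 fold change in KO against WT was -5.72 at S1 (adjusted p = 0.0212 by edgeR's quasi-likelihood test) and -0.55 at S3 (adjusted p = 0.381 by edgeR). The study describes spliced and polyadenylated RNAs that start at the α-globin enhancers, share exons of *Nprl3* and code for no protein, and a count per gene does not separate them from mRNA of the promoter. The S3 count is therefore no check of the KO label, and the S1 libraries of the same 2 embryos give that check. A normalised read count is a count scaled by the library's effective size (TMM over the 16 libraries). All 10 erythroid markers were detected in every group, with summed levels of 56623 to 99934 normalised counts at S1 and 879437 to 1320900 at S3. The S1 libraries of WT embryos 0 and 8 stood apart, with 6228 and 3539 normalised counts summed over 9 neutrophil granule genes against 35202 to 51890 in the other 6 S1 libraries, and the tests of the 10 genes, of the named companions and the counts over all genes that use S1 WT libraries were also run without these embryos. In bulk RNA of this kind, fewer cells of a type and less RNA per cell cannot be told apart. The libraries of a group came from separate embryos. The p-values rest on the spread between these few embryos, which edgeR moderates with the spread pooled over all genes. The main tests that used both stages treated the S1 and S3 libraries of an embryo as independent. Fits with the embryo as a block were run as alternatives.

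Of the 10 genes, 8 passed the filter of a mean above 10 normalised counts in every comparison, and *Icam4* and *Bcam* in none. *Icam4*, whose protein (the Landsteiner-Wiener antigen) binds integrins of the island macrophage, was listed at 0 in all 16 libraries. It lies at chr9:20940669-20941891 (mm39, plus strand), and all 1110 of its 1110 annotated exon bases lie within *Gm47079*, a long non-coding RNA gene on the minus strand at chr9:20939603-20943653. The counting used no strand and dropped reads that overlapped more than 1 gene. All 47 of the 47 protein-coding genes whose every exon base lies in the exons of 1 other gene were at 0 in all libraries, against 29.2% of the 15270 protein-coding genes with no exon base in another gene. The 0 of *Icam4* is therefore no measure of its transcript level. *Gm47079* itself had 5 to 14 raw counts at S1 and 14 to 69 at S3. *Bcam*, which encodes the Lutheran laminin receptor, had 0 to 11 raw counts per library, and 5 of the 16 libraries held 0. At this depth its level was too low to compare between groups.

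The other 8 genes spanned a wide range of transcript levels. Counts per kilobase of annotated exon were used to compare genes with each other. In WT S1 libraries *Bsg* had the highest level of the 8 (12149 normalised counts per kilobase, rank 66 of 13287 genes), followed by *Cd24a* (4428), *Cd47* (2083), *Itgb1* (1926), *Cd59a* (353), *Cd44* (324), *Itga4* (168) and *Cd36* (23.2 per kilobase, rank 9866). The ranges of *Cd47* and *Itgb1* overlapped between libraries, as did those of *Cd59a* and *Cd44* and of *Cd44* and *Itga4*, so these neighbours were not set apart. In WT S3 libraries the order became *Cd24a* (78896 per kilobase, rank 16 of 12807), *Bsg* (73252, rank 20), *Cd47* (10981), *Cd59a* (8477), *Cd36* (924), *Itgb1* (796), *Itga4* (263) and *Cd44* (52.2 per kilobase, rank 7696). There *Cd24a* overlapped *Bsg*, and *Cd36* overlapped *Itgb1*. *Itgb1* thus moved from the fourth to the sixth place per kilobase and *Cd36* from the last place to the fifth.

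**Figure D1:**
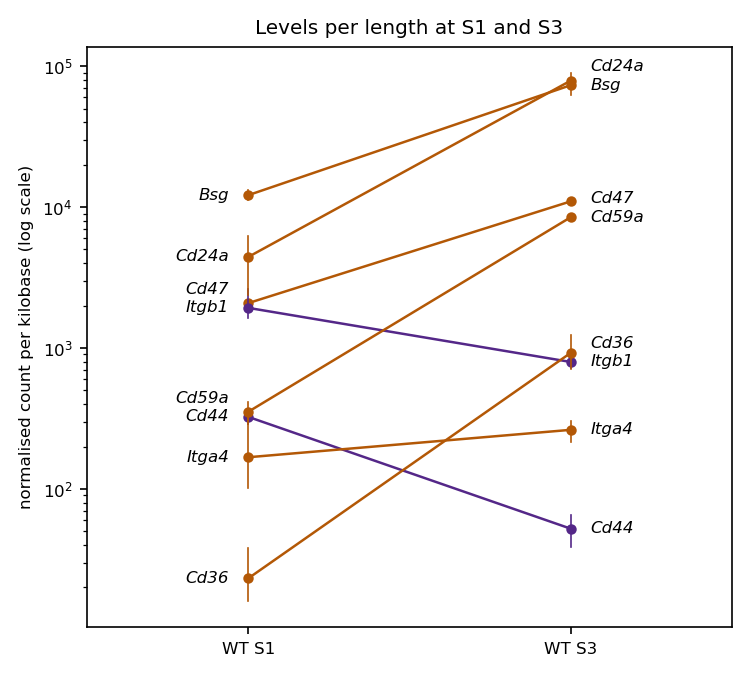
Mean normalised count per kilobase (log axis) of the 8 tested genes in the 4 WT libraries of S1 and of S3, with vertical lines from the lowest to the highest library. Orange lines mark genes whose mean was higher at S3 and purple lines *Itgb1* and *Cd44*, whose mean was lower, and the line of *Cd36* climbs from 23.2 to 924 per kilobase.

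The first question was how each gene changed as erythroblasts passed from S1 to S3. In WT embryos 5 of the 8 tested genes rose (*Cd36*, *Cd59a*, *Cd24a*, *Bsg* and *Cd47*) and 2 fell (*Itgb1* and *Cd44*) at an adjusted p under 0.05, while *Itga4* did not pass. Of all 13514 genes tested in this comparison, 30.6% were called higher and 35% lower at S3, so calls in either direction were common. In Het embryos 6 of the 8 genes rose and 2 fell, against 36.3% and 39.6% of 13085 genes, and in KO embryos again 6 rose and 2 fell, against 24.7% and 28.4% of 13446 genes. Without WT embryos 0 and 8 the same 7 genes were called in WT. The median log2 fold change of the 8 genes was 2.56 in WT, 2.61 in Het and 2.41 in KO embryos, and that of all genes tested was -0.08, -0.05 and -0.09. These tests were made with edgeR's quasi-likelihood test and Benjamini-Hochberg adjustment over all genes, as were all adjusted p-values given here.

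Among the receptors that bind matrix, lipids and macrophages, *Cd36* had the largest rise of the 8. It encodes a scavenger receptor that takes up long-chain fatty acids and binds thrombospondin, and lies at chr5:17986688-18093799 (minus strand). *Cd36* had 79.1, 60.1, 57.5 and 137 normalised counts in WT embryos 0, 1, 5 and 8 at S1 and 2560, 4423, 2964 and 3325 at S3. Every S3 library lay far above every S1 library. This was a log2 fold change of 5.36 (standard error, SE, 0.33, adjusted p = 7.8e-07 by edgeR), or 41.1-fold. Embryos 0 and 8, whose S1 libraries stood apart, had the highest S1 counts of *Cd36*, and without them the log2 fold change was 6.02.

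Both genes for small proteins held by a glycosylphosphatidylinositol (GPI) anchor also rose steeply. *Cd59a* encodes an inhibitor of the complement membrane attack complex and lies at chr2:103926146-103945699 (plus strand). It had 750, 522, 578 and 706 normalised counts in WT embryos 0, 1, 5 and 8 at S1 and 15652, 15128, 16255 and 14374 at S3. The S3 libraries differed little from each other (coefficient of variation 5.20%), and the log2 fold change was 4.65 (SE 0.17, edgeR adjusted p = 1.78e-07). *Cd24a* encodes the heat-stable antigen, a heavily glycosylated short peptide (chr10:43454280-43460261, plus strand). Its counts in WT embryos 0, 1, 5 and 8 were 13757, 6088, 9710 and 16147 at S1 and 203345, 191910, 189811 and 229137 at S3. At S1 the WT libraries varied more (coefficient of variation 38.9%), with embryos 0 and 8 highest. These are the embryos whose S1 libraries held few granule-gene counts. The same 2 libraries had the highest sums at S1 of erythroid markers (83564 and 99934 against at most 63582), hepatoblast markers (11235 and 10427 against at most 5565) and primitive globins (1625 and 2572 against at most 913). The part of these differences in the level of *Cd24a* was not tested. The log2 fold change of *Cd24a* was 4.22 (SE 0.32, edgeR adjusted p = 1.98e-06).

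*Bsg* and *Cd47* were already abundant at S1 and rose by similar amounts. *Bsg* encodes basigin, an immunoglobulin-family protein that brings monocarboxylate transporters to the membrane (chr10:79540325-79547803, plus strand). Its WT counts were 24014, 21611, 22037 and 20494 at S1 and 113574, 136672, 148390 and 132879 at S3, a log2 fold change of 2.65 (SE 0.15, edgeR adjusted p = 4.92e-07). *Cd47* encodes the ligand of SIRPα that restrains phagocytosis by macrophages (chr16:49620896-49735373, plus strand). It had 12134 to 13641 normalised counts in WT S1 libraries and 64442 to 72570 in WT S3 libraries. It rose 5.52-fold, a log2 fold change of 2.46 (SE 0.14, edgeR adjusted p = 4.43e-07). Its coefficient of variation in WT libraries was 5.03% at S1 and 6.15% at S3, so that the stages were separated by many times the spread between embryos.

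*Cd44* and *Itgb1* moved the other way. *Cd44* (chr2:102641486-102732010, minus strand) had 2232, 1956, 2099 and 2507 normalised counts in WT embryos 0, 1, 5 and 8 at S1 and 444, 348, 360 and 263 at S3. Every S3 library was below every S1 library, and the log2 fold change was -2.57 (SE 0.18, edgeR adjusted p = 1.45e-06), so that the S3 level was 0.168 of the S1 level. Neutrophils also carry CD44, and the sum of the 9 granule genes was 3539 to 51890 at S1 and 33.9 to 395 at S3. Most of the S1 sum came from *Mpo* (2887 to 38602 normalised counts), with *Elane* at 209 to 6096, *Ctsg* at 40.8 to 4086 and *Prtn3* at 171 to 3715. *S100a8* had 97.2 to 1918 normalised counts, *S100a9* 61.5 to 649, *Camp* 18.8 to 203, *Ngp* 0 to 184 and *Ltf* 0 to 67.1. The study's foetal liver erythroid antibody panel held CD11b and Gr1, which mark neutrophils. *Cd44* had 2232 and 2507 normalised counts in the 2 S1 libraries with few granule-gene counts and 1599 to 2417 in the other 6, and it fell by 2.33 and 3.25 on the log2 scale in those 2 embryos. The part of RNA from cells with these granule transcripts in the level of *Cd44* was not tested. *Itgb1*, the β1 integrin subunit shared by many matrix receptors (chr8:129412135-129459681, plus strand), had 6792, 6714, 7229 and 10707 normalised counts at S1 and 3301, 3461, 3287 and 2942 at S3. Embryo 8 was the highest at S1 and the lowest at S3. *Itgb1* had a log2 fold change of -1.22 (SE 0.17, edgeR adjusted p = 0.000136).

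*Itga4*, which encodes the α4 subunit that pairs with β1 to bind VCAM1 and fibronectin (chr2:79085770-79163467, plus strand), depended on 1 library. Its WT counts were 1456, 4749, 1410 and 1770 in embryos 0, 1, 5 and 8 at S1 and 4096, 3012, 3345 and 4234 at S3. Embryo 1 at S1 stood above all 15 other libraries, and the other 3 WT embryos were lower at S1 than at S3. Over the 4 WT embryos the log2 fold change was 0.72 (SE 0.37, edgeR adjusted p = 0.111). Without embryo 1 it was 1.40 (edgeR adjusted p = 0.000191), and with the embryo as a block it was 0.93 (edgeR adjusted p = 0.032). Without embryo 0 it was 0.49 (edgeR adjusted p = 0.359) and without embryos 0 and 8 it was 0.11 (edgeR adjusted p = 0.864). *Itga4* rose in Het embryos (log2 fold change 1.42, edgeR adjusted p = 1.41e-10) and in KO embryos (1.13, edgeR adjusted p = 0.0155), which do not include embryo 1. Some 8.04% of the exon bases of *Itga4* lie within *Cerkl*, and reads there were not counted.

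**Figure D2:**
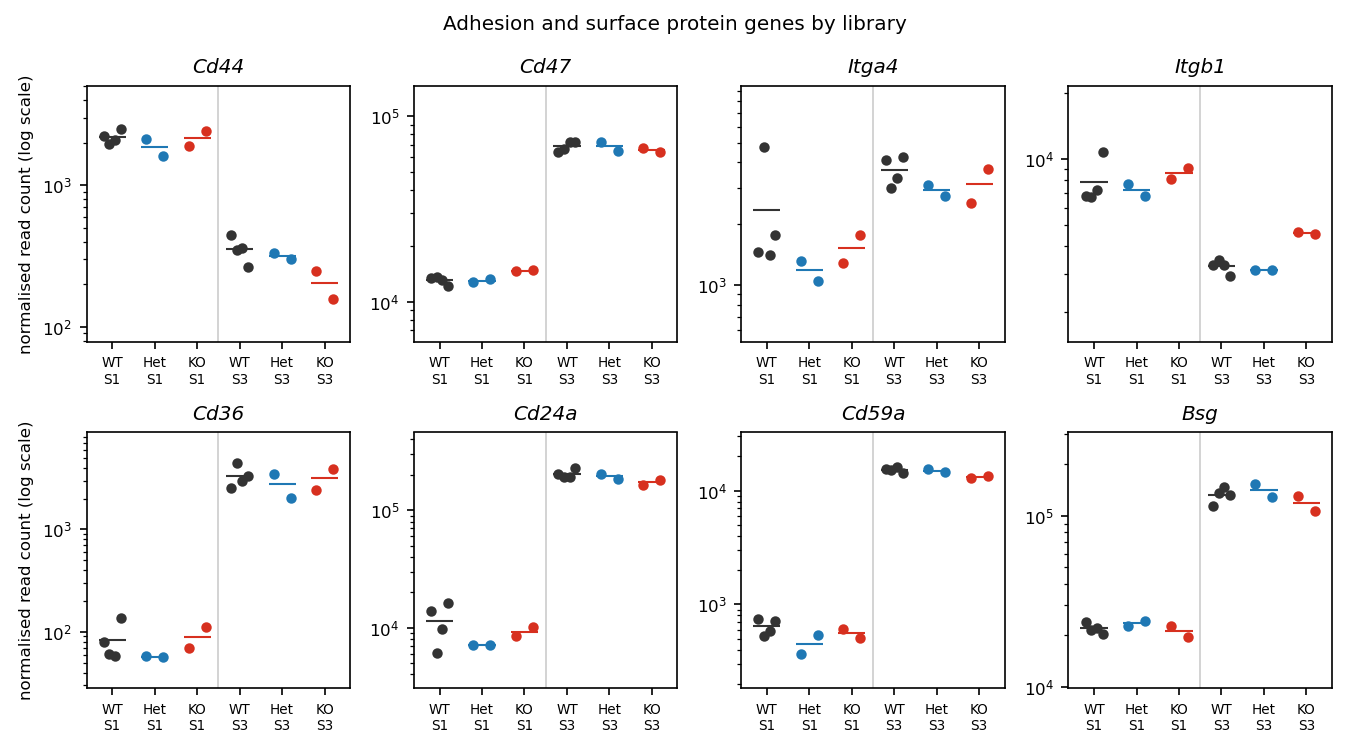
Normalised read count (log axis) of each of the 8 tested genes in all 16 libraries, grouped by genotype and stage, with 1 point per embryo and a line at the mean of each group. S1 and S3 libraries are fully separated for 7 genes, and for *Itga4* the S1 library of WT embryo 1 (4749) lies above all S3 libraries.

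Since S1 and S3 cells were sorted from the same livers, the change could also be read within each embryo. The direction was the same in 8 of 8 embryos for all but *Itga4*, which was higher at S3 in 7 of 8. On the log2 scale the ratio of S3 to S1 ran from 4.60 to 6.20 for *Cd36*, from 4.35 to 5.40 for *Cd59a*, from 3.83 to 4.98 for *Cd24a*, from 2.24 to 2.75 for *Bsg* and from 2.11 to 2.58 for *Cd47*. It ran from -1.86 to -0.80 for *Itgb1* and from -3.95 to -2.33 for *Cd44*. *Bsg* and *Cd47* therefore varied least between embryos in their rise, and their ranges overlapped each other. For *Itga4* the ratio was -0.66 in WT embryo 1 and between 0.98 and 1.49 in the other 7. The sort itself used Ter119 and CD71, the product of *Tfrc*. *Tfrc* was higher at S3 in all 8 embryos (by 1.97 to 2.91 on the log2 scale), a difference tied to the gate, whereas none of the 10 genes was used in the sort.

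**Figure D3:**
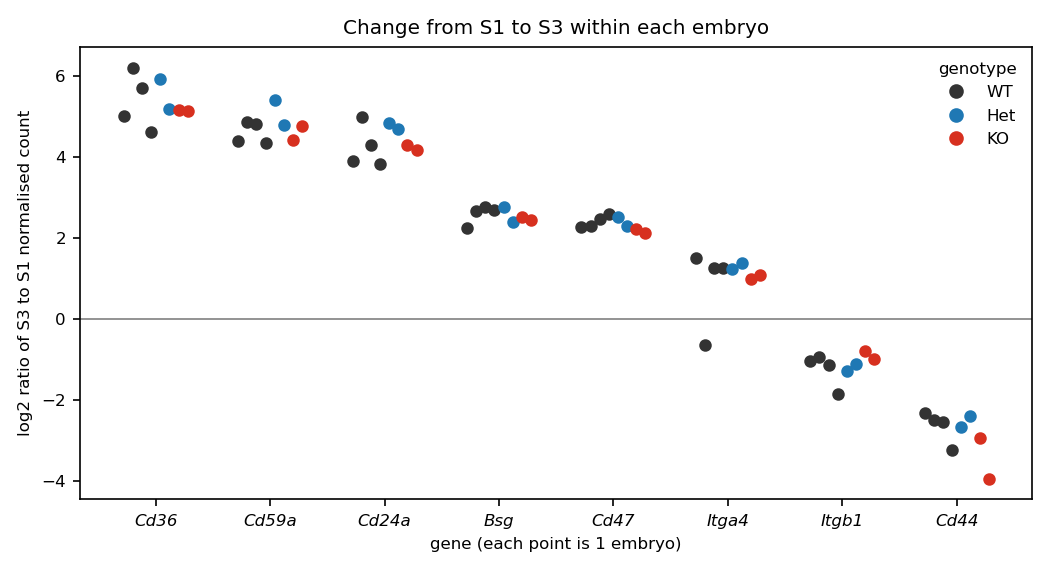
Log2 ratio of the normalised count at S3 to that at S1 within each of the 8 embryos, coloured by genotype, for the 8 tested genes. Points lie above 0 for *Cd36*, *Cd59a*, *Cd24a*, *Bsg* and *Cd47* and below 0 for *Itgb1* and *Cd44* in every embryo, and the single *Itga4* point below 0 is WT embryo 1 (-0.66).

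The α4 and β1 chains form 1 receptor, and the levels of their transcripts were set against each other in each library. Since β1 is shared by many receptors, this ratio describes transcripts and not the receptor. Per kilobase, *Itgb1* exceeded *Itga4* by a factor of 15.97, 17.56 and 20.73 in WT embryos 0, 5 and 8 at S1, and of 4.84 in embryo 1. In the Het and KO S1 libraries the factor was 17.7 to 22.1. At S3 it was 2.76, 3.94, 3.37 and 2.38 in WT embryos 0, 1, 5 and 8, 3.47 and 3.92 in Het and 6.28 and 4.21 in KO embryos 2 and 9. The ratio was thus lower at S3 than at S1 in every embryo, and at S3 both KO libraries were above the 4 WT and 2 Het libraries.

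**Figure D4:**
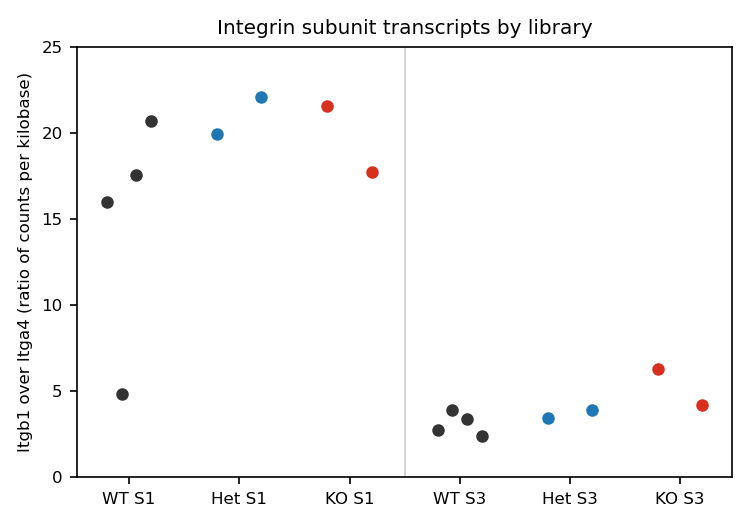
Ratio of *Itgb1* to *Itga4* in normalised counts per kilobase, with 1 point per library, grouped by genotype and stage. S1 libraries lie between 15.97 and 22.1 apart from WT embryo 1 (4.84), and S3 libraries between 2.38 and 6.28, with both KO libraries highest.

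Other cell types could also hold these transcripts, and their markers differed between stages. In WT embryos 30.6% of all genes were called higher at S3 and 35% lower. Between S1 and S3 in WT embryos, 9 of 9 neutrophil markers were lower at S3 and 10 of 13 tested macrophage markers higher (summed levels 511 to 1148 at S1 and 1033 to 2627 at S3). *Vsig4*, another macrophage marker, was at 0 in every library, while 14 of the 15 macrophage markers averaged above 10 normalised counts in WT S3 libraries. The platelet marker *Gp1bb* was at 0 in every S3 library, but 92.9% of its exon bases lie in other genes, so that its 0 is no measure of its level. Of 10 hepatoblast markers 3 were higher at S3 (sums 2022 to 11235 at S1 and 6592 to 29026 at S3), of 8 megakaryocyte markers tested 2 were higher and 2 lower, of 5 endothelial markers 2 were higher and 1 lower, and all 3 primitive erythroid globins were higher. The summed macrophage, megakaryocyte and endothelial markers were each at most 3701 normalised counts in any library. Their part in the changes of the surface genes was not tested.

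A wider set of 79 companion genes, grouped by the pathways and complexes of the 10, placed these changes in context. In WT embryos 27 of the 74 companions tested were higher at S3 and 24 lower, beside the 30.6% and 35% of all genes. The members of the Rh and band 3 complex, which ties the red cell membrane to its skeleton and to which CD47 belongs, were called together, 8 of 8 higher with a median log2 fold change of 4.07. *Rhd* had 8894 ± 2407 normalised counts at S1 and 154483 ± 14467 at S3 in WT (SD, n = 4), and *Gypc* rose by 3.31 on the log2 scale (SE 0.21, edgeR adjusted p = 8.58e-07). All 3 complement regulators tested were higher at S3 as well (median log2 fold change 1.93). *Cd59b*, the neighbour and near copy of *Cd59a*, rose from 103 ± 26.4 to 1010 ± 166 (SD, n = 4, log2 fold change 3.36, edgeR adjusted p = 9.99e-07). Reads shared by such copies were not counted, so the levels of *Cd59a* and *Cd59b* are uncertain to that extent. *Cr1l*, the mouse regulator Crry, rose by 1.67 on the log2 scale (edgeR adjusted p = 2.52e-06).

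GPI anchors, which the products of *Cd59a* and *Cd24a* need, are built and attached by a separate set of enzymes. Of the 8 genes of this set that were tested in WT embryos, 0 were called higher by edgeR, 4 were called lower and 4 were not called, beside the 35% of all genes called lower, with a median log2 fold change of -0.37. In Het embryos 4 of the 8 were called lower, beside 39.6% of all genes, and in KO embryos 2 of the 8, beside 28.4%. *Pigm*, a mannosyltransferase of the pathway, fell by 1.71 (SE 0.15, edgeR adjusted p = 5.89e-06), and *Pigb*, another, by 1.94 (SE 0.23, edgeR adjusted p = 4.28e-05). Among 6 partners and relatives of basigin, 3 were higher and 2 lower in WT embryos, beside 30.6% and 35% of all genes. *Slc3a2*, the heavy chain of amino acid transporters, rose by 1.82 (edgeR adjusted p = 1.83e-06) and *Nptn*, the basigin relative neuroplastin, by 1.90 on the log2 scale (edgeR adjusted p = 6.07e-06).

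Other adhesion genes were set beside the 30.6% of all genes called higher and the 35% called lower in WT embryos. Of 17 tested integrins and integrin activators 5 were higher at S3 and 7 lower. *Itgb2*, the β subunit of leukocyte integrins, had 355 ± 70.2 normalised counts at S1 and 45.4 ± 12.7 at S3 (SD, n = 4, log2 fold change -2.89, edgeR adjusted p = 5.07e-06), and *Lims1*, which links integrins to actin through its kinase partner, rose by 1.67 (edgeR adjusted p = 2.08e-06). Of 9 tetraspanins, the small membrane proteins that gather integrins, 3 were higher and 5 lower. *Tspan32* rose by 2.13 on the log2 scale and *Cd81* fell by 2.32 (edgeR adjusted p = 1.77e-06 and 2.36e-06). Of 6 other immunoglobulin-family adhesion genes, 0 were called higher by edgeR and 3 lower, led by *Icam2* (926 ± 411 to 22.3 ± 11.9 normalised counts, SD, n = 4) and *Cd48*, which fell by 4.15 on the log2 scale (edgeR adjusted p = 0.000221). Leukocytes carry both, and among the WT S1 libraries both were lowest in embryos 0 and 8 (*Icam2* 836 and 403 against 1370 and 1094, *Cd48* 241 and 99.7 against 707 and 507), the libraries with few granule-gene counts. All 9 neutrophil markers were lower at S3 as well, CD11b and Gr1 being among the antibodies of the panel named above, and their part in these falls was not tested.

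Of 6 island and matrix partners, *Lamc1*, a laminin chain, fell by 4.77 and *Vcam1*, the ligand of α4β1, rose by 1.65 on the log2 scale (edgeR adjusted p = 6.91e-06 and 0.00184), the latter from 64.8 ± 31.9 to 195 ± 38.9 normalised counts (SD, n = 4). In Het embryos *Vcam1* rose by 1.87 (edgeR adjusted p = 5.83e-06) and in KO embryos it was not called (0.31, edgeR adjusted p = 0.72). Of 13 macrophage markers tested in WT embryos 12 were above 0, and their part in the rise of *Vcam1* was not tested. Of 5 genes for CD44 linkers and relatives 2 were higher and 1 lower, beside 30.6% and 35% of all genes. *Hmmr*, a hyaluronan receptor that also serves the mitotic spindle, rose by 1.83 (edgeR adjusted p = 1.52e-05), and *Nf2* fell by 0.66 on the log2 scale (edgeR adjusted p = 0.0248). Leaving out WT embryo 0, 5 or 8 ended the call of *Nf2* (edgeR adjusted p = 0.0772, 0.094 and 0.133), as did leaving out embryos 0 and 8 together (0.244). Of 5 genes related to CD36, the lysosomal scavenger receptor *Scarb2* fell by 2.41 (edgeR adjusted p = 1.63e-05). *Fabp4*, a fatty acid carrier of macrophages and fat cells, rose from 12.6 ± 6.77 to 49.4 ± 31.6 normalised counts (SD, n = 4, edgeR adjusted p = 0.0143), a call that ended without WT embryo 5 (edgeR adjusted p = 0.0599) or without embryos 0 and 8 (0.111).

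The second question was whether loss of *Nprl3* altered the surface genes. At S1, 0 of the 8 genes tested differed between KO and WT libraries by edgeR, 0 had an unadjusted p under 0.05 and 0 were called by DESeq2, and of all 14039 genes 0.00712% were called by edgeR, 355 had an unadjusted p under 0.05 and DESeq2 called 45. The groups did not overlap for 1 of the 8, *Cd47*, against 9.92% of all genes. *Cd47* had 14586 and 14741 normalised counts in KO S1 libraries and at most 13641 in WT, a log2 fold change of 0.18 (95% interval -0.16 to 0.51). The intervals were widest for *Itga4* (-1.79 to 0.59), *Cd36* (-0.94 to 1.15) and *Cd24a* (-1.20 to 0.59). The log2 fold change of *Itga4* was -0.60, and -0.029 without WT embryo 1. Without WT embryos 0 and 8 the log2 fold change of *Cd24a* turned from -0.31 to 0.25, and again 0 of the 8 genes were called by edgeR.

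At S3, 0 of the 8 genes passed in edgeR's test of KO against WT, 2 had an unadjusted p under 0.05 (*Itgb1* and *Cd44*) and DESeq2 called 1 (*Itgb1*), beside 0.559% of 11804 genes called by edgeR. Of all genes, 1006 had an unadjusted p under 0.05 in this comparison and DESeq2 called 259. In 4 of the 8 genes the 2 KO libraries lay outside the range of the 4 WT libraries, against 18.7% of all genes tested. These were *Itgb1*, above, and *Cd44*, *Cd24a* and *Cd59a*, below. The median log2 fold change of the 8 was -0.13 and that of all genes 0.0072.

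*Itgb1* had 4650 and 4561 normalised counts in KO embryos 2 and 9 at S3, 3301, 3461, 3287 and 2942 in WT embryos 0, 1, 5 and 8, and 3127 and 3135 in Het embryos 3 and 4. Both KO libraries lay above the other 6, which overlapped. The log2 fold change against WT was 0.56 (SE 0.12, 95% interval 0.30 to 0.83, adjusted p = 0.0995 by edgeR). It passed when the Het libraries of the stage shared the fit (edgeR adjusted p = 0.0353), when sex was a term of the model (adjusted p = 0.00312 by edgeR) and by DESeq2 (0.000946), and over the fits that left out 1 embryo the log2 fold change stayed between 0.51 and 0.57 with edgeR adjusted p from 0.153 to 0.485. At S1 the same genotypes had 8111 and 9070 counts in KO and 6714 to 10707 in WT libraries (log2 fold change 0.13, 95% interval -0.45 to 0.71). Leaving out 1 embryo in turn, this S1 value ran from 0.028 (without KO embryo 9) to 0.34 (without WT embryo 8).

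*Cd44* had 248 and 157 normalised counts in the KO S3 libraries of embryos 2 and 9 and 444, 348, 360 and 263 in those of WT embryos 0, 1, 5 and 8. The KO libraries were the lowest, and KO embryo 2 lay close beneath WT embryo 8. The log2 fold change was -0.75 (SE 0.26, 95% interval -1.35 to -0.15, adjusted p = 0.396 by edgeR). Among the alternatives it passed only in DESeq2 with sex as a covariate (adjusted p = 0.0376). Without KO embryo 9 the value was -0.46 and without KO embryo 2 it was -1.10. The Het libraries, with 334 and 303 counts, lay within the WT range.

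*Cd24a* had 165313 and 179393 normalised counts in KO S3 libraries against 189811 to 229137 in WT (log2 fold change -0.19, 95% interval -0.54 to 0.17). *Cd59a* had 12991 and 13551 in KO against 14374 to 16255 in WT (-0.15 on the log2 scale, 95% interval -0.42 to 0.12). The shift of both was within the spread that the test estimated. For *Cd47* the interval was -0.32 to 0.29, for *Bsg* -0.47 to 0.25, for *Itga4* -0.68 to 0.32 and for *Cd36* -0.58 to 0.56, so that for *Cd47* a rise or fall of more than those bounds lay outside the 95% interval.

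**Figure D5:**
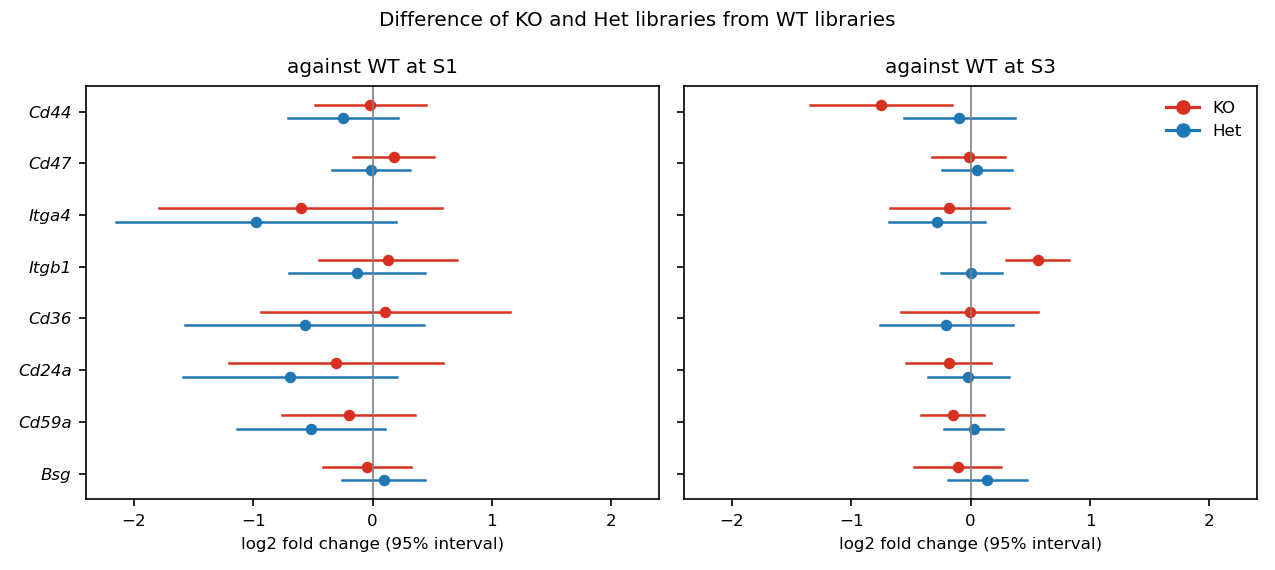
Log2 fold change with its 95% interval for KO (red) and Het (blue) against WT libraries, at S1 on the left and S3 on the right, for the 8 tested genes. Only the KO intervals of *Itgb1* (0.30 to 0.83) and *Cd44* (-1.35 to -0.15) at S3 lie off 0, and neither passed the correction over all genes in edgeR.

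Markers of other cells at S3 were set beside these values. None of the 13 macrophage markers tested had a log2 fold change above 0 in KO libraries, and 1 was called lower (summed levels 468 and 1127 in KO and 1033 to 2627 in WT). None of the 10 hepatoblast markers was above 0 either, with 0 called by edgeR (sums 2941 and 7560 in KO and 6592 to 29026 in WT). Megakaryocyte markers summed to 1854 and 3701 in KO and 1791 to 3185 in WT, with 7 of 8 above 0, endothelial markers to 152 and 473 against 181 to 844, neutrophil markers to 47.0 and 395 against 33.9 to 146, and primitive globins to 62719 and 74433 against 65672 to 136247. Of the 10 erythroid markers 0 were above 0 and 0 were called by edgeR, with a median log2 fold change of -0.25. The part of these differences in the values of *Itgb1*, *Cd44*, *Cd24a* and *Cd59a* was not tested.

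The Het libraries were compared with the same WT libraries. At S1, 0 of the 8 genes were called by edgeR or DESeq2 and 0 had an unadjusted p under 0.05, where edgeR called 0% of all 13818 genes, 589 had an unadjusted p under 0.05 and DESeq2 called 30. For 2 of the 8 the groups did not overlap, against 18% of all genes. Both were lower in Het, *Itga4* with 1313 and 1051 normalised counts against at least 1410 in WT, and *Cd36* with 57.5 and 56.1 against at least 57.5. For *Cd36* the highest Het and the lowest WT library differed by less than 1 count. The log2 fold change of *Itga4* was -0.97, with -0.41 without embryo 1 and -1.37 without embryos 0 and 8. That of *Cd36* was -0.57, with -0.71 without embryo 5 and -0.040 without embryos 0 and 8. In the same comparison 0 of 10 hepatoblast, 0 of 8 megakaryocyte and 0 of 3 primitive globin markers were above 0. Above 0 were 1 of 12 macrophage, 1 of 5 endothelial, 3 of 10 erythroid and 7 of 9 neutrophil markers. Their part was not tested. At S3, 0 of the 8 were called by edgeR or DESeq2, 0 had an unadjusted p under 0.05 and the groups overlapped for all 8, beside 0% of 11746 genes called (373 at an unadjusted p under 0.05, and 1 called by DESeq2) and 14.8% not overlapping.

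Whether the effect of genotype differed between stages was tested by the interaction of KO and stage over the WT and KO libraries. By edgeR 0 of the 8 genes were called, as were 0 by DESeq2, beside 0.00742% of 13485 genes. Of all genes, 420 had an unadjusted p under 0.05 and DESeq2 called 12, and of the 8 *Cd44* alone had an unadjusted p under 0.05. From S1 to S3 it fell by 3.34 on the log2 scale in KO and by 2.57 in WT embryos, an interaction of -0.73 (95% interval -1.46 to -0.0082, edgeR adjusted p = 1). Without KO embryo 2 it was -1.24 and without KO embryo 9 it was -0.29. For *Itgb1*, which fell by 0.81 in KO and 1.22 in WT embryos, the interaction was 0.44 (95% interval -0.21 to 1.08), and 0.18 without WT embryo 8.

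Of the companions, 0 of 75 were called by edgeR between KO and WT at S1 (1 at an unadjusted p under 0.05, 0 by DESeq2) and 1 of 70 at S3 (9 at an unadjusted p under 0.05, 3 by DESeq2). At S1 these counts stand beside 1 of all 14039 genes called by edgeR, 355 at an unadjusted p under 0.05 and 45 called by DESeq2. At S3 they stand beside 66 of all 11804 genes called by edgeR, 1006 at an unadjusted p under 0.05 and 259 called by DESeq2. The gene called by edgeR at S3 was *Lpl*, a lipase that frees fatty acids for uptake through CD36. At S3 it had 96.0 and 93.0 normalised counts in KO libraries, 197 and 197 in Het and 285, 220, 311 and 257 in WT embryos 0, 1, 5 and 8, so that KO, Het and WT libraries did not overlap. The log2 fold change of KO against WT was -1.45 (SE 0.23, adjusted p = 0.0428 by edgeR). The call was lost in 8 of 16 alternatives, among them every fit that left out 1 embryo (edgeR adjusted p = 0.0557 to 0.215), while the value stayed between -1.56 and -1.39. Macrophages express *Lpl*, and the summed macrophage markers overlapped between the genotypes at S3 (1127 in KO embryo 2 and 1033 in WT embryo 8). Of the 13 macrophage markers tested, 0 were above 0 in KO against WT and 1 was called lower by edgeR, and their median log2 fold change was -1.34. Their part in the difference of *Lpl* was not tested. Between Het and WT at S1 edgeR called 0 of 75 companions, 10 had an unadjusted p under 0.05 and DESeq2 called 2. Over all 13818 genes these counts were 0, 589 and 30. At S3 they were 0, 2 and 0 of 69 companions and 0, 373 and 1 of 11746 genes. For the interaction they were 0, 2 and 1 of 73 companions and 1, 420 and 12 of 13485 genes.

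For each gene the protein-coding gene with the most similar pattern over the 16 libraries was sought among 11098 genes, by the root mean square difference of log2 counts centred per gene. *Bsg* lay closest to *Ghitm* (0.065), *Itgb1* to *Ero1a* (0.086), *Cd47* to *Sdcbp* (0.088), *Cd59a* to *Chac2* (0.15), *Cd24a* to *Dhrs11* (0.16) and *Itga4* to *Rlf* (0.17). *Cd44* and *Cd36* had no neighbour nearer than *Nr1d2* (0.26) and *Ccrl2* (0.30), respectively. All of these distances rest largely on the difference between stages and the shared libraries.

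Promoter sequence was read from GRCm39 for the 250 bases before the start of each gene's Ensembl canonical transcript, and searched on both strands for a GATA motif (AGATAA) and an erythroid CACCC motif (CCACACCC). GATA1 and KLF1, the central activators of erythroid genes, bind motifs of these kinds. *Cd59a*, which rose at S3, held the single CACCC match among the 10 genes, and *Cd44*, which fell, held 1 of the 2 GATA matches, so both windows are shown. The first is chr2:103925882-103926131 (plus strand) and the second chr2:102732011-102732260 (minus strand), written 5′ to 3′ towards the gene with the match in capitals.
Cd59a: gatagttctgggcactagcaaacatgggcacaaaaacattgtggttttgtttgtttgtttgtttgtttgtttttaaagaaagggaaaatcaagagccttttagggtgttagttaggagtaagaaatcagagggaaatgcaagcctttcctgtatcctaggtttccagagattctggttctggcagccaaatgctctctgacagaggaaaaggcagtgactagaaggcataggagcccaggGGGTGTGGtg
Cd44: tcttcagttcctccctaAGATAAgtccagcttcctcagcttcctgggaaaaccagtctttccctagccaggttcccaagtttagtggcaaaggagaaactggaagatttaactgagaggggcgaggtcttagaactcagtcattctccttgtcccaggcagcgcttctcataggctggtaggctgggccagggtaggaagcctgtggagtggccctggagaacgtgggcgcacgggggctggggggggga
The match of *Cd59a* lies on the opposite strand, so its capitals read as the reverse complement, and begins at position -10 from the transcript start. That of *Cd44* begins at -233, and the other GATA match, in *Cd47*, which rose, at -239. Over all 21627 promoters of the same length 9.64% held AGATAA and 3.57% held CCACACCC. The shorter letters GATAA, which AGATAA contains, were found in the same 2 of the 10 windows and in 22.4% of all promoters, and CACCC, contained in CCACACCC, in 6 of the 10 and in 53%. A match describes the letters only and not a bound factor.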

How the data were processed

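Read counts were taken as the authors deposited them, as raw counts per gene without normalisation. Per the labels, RNA from the sorted cells was amplified and polyA-enriched, and the submitters' processing notes name STAR 2.7.9, featureCounts 1.6.4 and the mm39 build. The study's methods name Ensembl release 104 for the annotation, and the file header shows that read pairs were counted without strand, with multi-mapping reads and those in more than 1 gene left out. The table holds 20 library columns, of which 4 match no sample analysed here and were not used. Symbols were found for 54749 of the 55416 genes in GENCODE release M39, and 667 had none.

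The 10 genes, the companion and marker lists and the rule for named genes were chosen with earlier results of these data known. All 10 genes were named. Beside them, the text names *Nprl3*, the gate gene *Tfrc*, the 2 companions of each list with the smallest p among those called between stages in WT, each companion called between genotypes, and the nearest gene of each of the 8 tested. The marker genes named singly were *Mpo*, *Elane*, *Prtn3*, *Ctsg*, *S100a8*, *S100a9*, *Camp*, *Ngp*, *Ltf*, *Vsig4* and *Gp1bb*. They and the overlapping genes *Gm47079* and *Cerkl* fall outside this rule and were chosen after their values were seen. One gene that the rule would name is not reported here. Genes averaging above 10 normalised counts in the libraries compared were tested with edgeR 4.0.16 (TMM, glmQLFit and glmQLFTest) in R 4.3.3, without covariates, with Benjamini-Hochberg adjustment over all genes tested and a threshold of 0.05. Intervals are at 95%. The scripts were tested on simulated counts.

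Alternatives were DESeq2 1.42.0, edgeR's newer quasi-likelihood method, no filter, filterByExpr, upper-quartile normalisation, scaling without globin genes, fits over more libraries, sex as a covariate, the embryo as a replicate block, and leaving out each embryo or library in turn. Fits without WT embryos 0 and 8 were added after seeing the data. The S1 and S3 libraries with the same number came from 1 animal, and over 13402 genes their departures from the mean of the group correlated at 0.0677, 0.207, 0.308 and 0.295 in WT embryos 0, 1, 5 and 8, at 0.0405 in the Het and at 0.38 in the KO embryos.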

Additional observations from a re-analysis of the deposited data

Results flagged for a closer look

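In the groups of 4 WT libraries or embryos, 46 sets of values were examined for a single value far from the other 3 (Dixon's test at its 95% limit), and 5 stood apart. Chance alone marks about 1 in 20 such groups. *Itga4* had 4749 normalised counts in the S1 library of WT embryo 1 against 1410 to 1770 in the other WT S1 libraries, and its log2 ratio of S3 to S1 in that embryo was -0.66 against 1.25 to 1.49 in the other WT embryos. *Itgb1* had 10707 normalised counts in the S1 library of WT embryo 8, where the others had 6714 to 7229. The gate gene *Tfrc* was also highest in that library, at 21226 normalised counts against 10832 to 12415. The summed macrophage markers reached 1148 normalised counts in the S1 library of WT embryo 0 against 511 to 611 in the others.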

How the results depend on the processing

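Over the 928 refits of a single gene of the 10 in the 8 comparisons, 885 kept the direction and the side of the threshold, 7 gained a call, 0 lost one and 36 changed sign, all 36 in genes that passed in no fit of that comparison. Every call of the 10 genes between S1 and S3 held in all alternatives run. The number of the 10 genes called between KO and WT at S3 was 0 as reported, 1 in DESeq2, 1 with all libraries of the stage in the fit, 1 in edgeR with sex as a covariate and 2 in DESeq2 with sex, where the same fits called 259, 113, 547 and 730 of all genes in place of 66, and the cause was not tested. With the embryo as a replicate block, the pairing gave a log2 fold change of 0.93 for *Itga4* from S1 to S3 in WT embryos and 8 calls among the 10 genes in place of 7, and it changed no other call.

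Signs changed as follows. Without WT embryos 0 and 8, KO against WT at S1 gave 0.11 for *Cd44*, 0.25 for *Cd24a* and 0.028 for *Cd59a*, Het against WT at S1 gave 0.059 for *Itgb1*, and the interaction gave -0.33 for *Cd24a* and -0.22 for *Cd59a*. The interaction of *Cd59a* was -0.0083 without the filter and -0.0064 with upper-quartile normalisation. Leaving out 1 embryo in turn, KO against WT at S1 ran from -0.30 to 0.49 for *Cd36*, from -0.22 to 0.14 for *Cd44* and from -0.16 to 0.039 for *Bsg*. At S3 it ran from -0.39 to 0.29 for *Cd36*, from -0.062 to 0.010 for *Cd47*, from -0.49 to 0.078 for *Itga4* and from -0.25 to 0.014 for *Bsg*. Het against WT ran at S1 from -0.055 to 0.0079 for *Cd47* and from -0.23 to 0.055 for *Itgb1*, and at S3 from -0.19 to 0.032 for *Cd44*, from -0.015 to 0.031 for *Itgb1*, from -0.073 to 0.072 for *Cd24a*, from -0.010 to 0.11 for *Cd47* and from -0.62 to 0.12 for *Cd36*. The interaction ran from -0.16 to 0.24 for *Cd59a*, from -0.29 to 0.65 for *Itga4*, from -0.49 to 0.13 for *Cd36* and from -0.049 to 0.25 for *Cd24a*.

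The number of all genes called depended more on the method. It was 66 between KO and WT at S3 and ran from 11 (without WT embryo 0 or 8) to 730 (DESeq2 with sex), 1 at S1 (0 to 171), 0 between Het and WT at S1 (up to 30 in DESeq2) and at S3 (up to 57 without the filter), and 1 for the interaction (up to 24 in DESeq2 with sex). The Het and KO groups hold 2 embryos each, which limits the precision of these comparisons.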
